A study of Rattus norvegicus with 6 samples.

Results

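Protease inhibitors of the whey acidic protein, Kazal, cystatin and serpin families were followed in prostate RNA from rats with and without hormone pellets. Members were matched by symbol alone: Wfdc, Spink or Cst followed by a number, Serpin with a clade letter and a number, Serping1 and Slpi. This rule was set with earlier results of these data known. The rule found 80 of the 32883 rows of the deposited table, which carry 79 symbols because Spink14 is listed on chromosome 2 and on chromosome 18. They comprise 18 Wfdc genes with Slpi, 13 Spink, 9 Cst, 13 Serpina, 16 Serpinb and 11 serpin genes of other clades.

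The study holds 6 libraries of rat prostate tissue (Rattus norvegicus). In the 3 hormone libraries the rats carried, under the skin for 4 weeks, 4 pellets with 25 mg of testosterone and 2.5 mg of estradiol each, a treatment used to model benign prostatic hyperplasia. The 3 control libraries came from rats with an incision and staples and no pellets. A condition label names hyperplasia for all 6 samples and was not used for grouping. Strain, age and lobe were not given in the sources used here. No label ties a tissue to an animal of its own, and the p-values therefore reflect only how far these 6 samples vary, which may be technical. Total counts ranged from 12931982 to 15949500, and 0 counts in a library leave room for a level of 0.182 to 0.234 CPM (counts scaled to a common library total; a limit of 3 counts per library that covers counting error only). Of 10 prostate luminal markers, 9 had counts and Pbsn, probasin, was listed at 0 in all 6 libraries. Tgm4 alone supplied 91.9% to 96.6% of their summed level, and without Tgm4 the sum was 4333 to 6870 CPM in the controls and 3830 to 4778 CPM in hormone libraries. Single luminal markers differed in direction: 7 did not overlap between groups, 5 higher and 2 lower in hormone libraries. Krt8 and Sbp were called higher (edgeR adjusted p = 0.0164 and 0.0119). Of all genes tested, 31.3% did not overlap and edgeR called 3.27%.

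Inhibitors of these families bind proteases of the secretory tract and the extracellular space. Genes of the whey acidic protein (WAP) family and Kazal-type inhibitors (Spink) encode small, cysteine-rich secreted proteins that mostly block serine proteases, cystatins block cysteine cathepsins, and serpins trap their target through a reactive loop that the protease cuts. In the male tract such inhibitors accompany the proteases that process semen. The set is not uniformly secreted or inhibitory: clade B serpins act largely inside cells, Serpinh1 is a collagen chaperone of the endoplasmic reticulum, and Serpinf1 is a secreted factor without protease inhibition.

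Under the pellets Wfdc18 fell 26.5-fold, and no other tested member passed the same test. Of the 80 members, 32 had no count in any library, 22 had counts but not enough of them in 3 libraries to be tested, and 26 were tested. Wfdc18 was the 1 tested member past an adjusted p of 0.05 (edgeR quasi-likelihood test, adjusted over all genes tested), and it was lower in hormone libraries. That is 3.85% of the tested members, against 3.27% of all 14003 genes tested (0.886% called lower and 2.39% higher, 124 and 334 genes, or 230 and 259 when scaled by library totals only), so the share of calls was near the background. edgeR called 0 members higher, and 2 higher and 3 lower members had an unadjusted p under 0.05, against 22.8% of all genes tested in either direction. DESeq2 called 3 members, all lower (Wfdc18, Wfdc2 and Cst6), where 10.9% of all genes passed with that tool and 4.42% were lower. The median log2 fold change of the tested members was 0.07, against -0.0015 for all genes tested, and 15 were positive and 11 negative. Control and hormone values did not overlap for 4 of the 26 tested members (Wfdc18, Wfdc2, Cst6 and Serpinb6b), or 15.4%, against 31.3% of all genes tested. In bulk tissue, fewer cells of a type and less RNA per cell cannot be told apart.

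**Figure D1:**
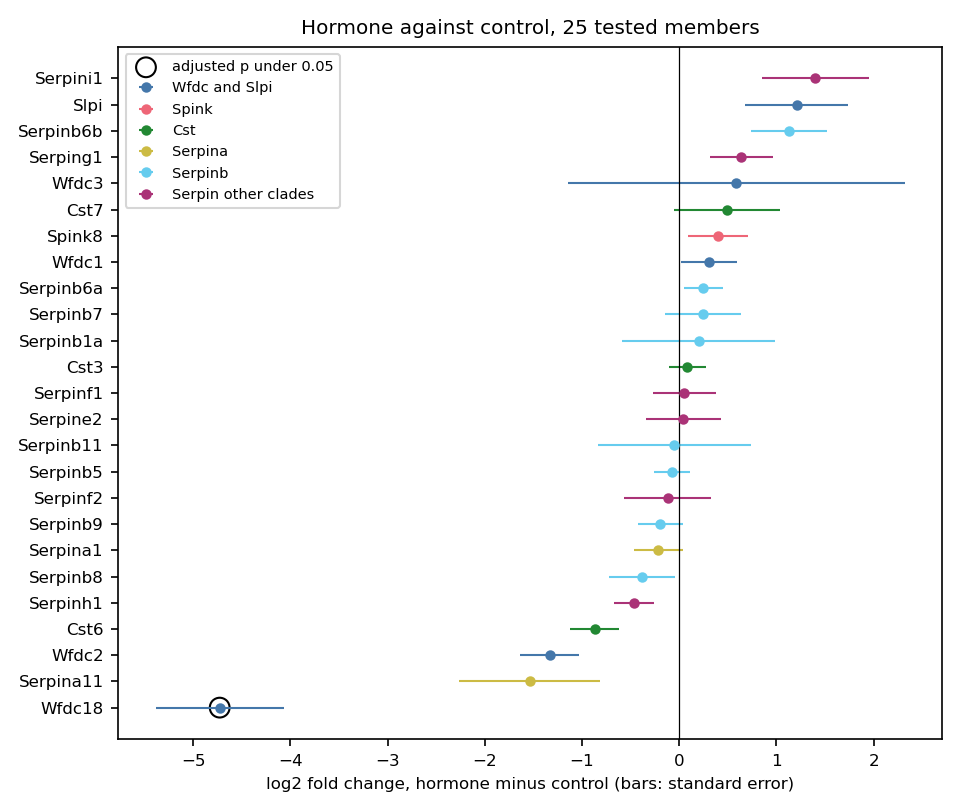
Log2 fold change (hormone minus control, x axis) of 25 of the 26 tested members, ordered by size on the y axis and coloured by family; bars are standard errors from edgeR and the ring marks an adjusted p under 0.05. Wfdc18, at -4.73, is the one ringed gene, and the other estimates lie between -1.54 and 1.40.

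Wfdc18, which encodes a small secreted WAP protein also known as WDNM1 or Expi, was among the most abundant transcripts of control prostates and a minor one under the pellets. Its level in controls 1, 2 and 3 was 382, 168 and 143 CPM, and in hormone libraries 1, 2 and 3 it was 14.3, 9.08 and 2.50 CPM. Every control lay above every hormone library, and the spread within each group was itself wide. In FPKM, which divides by gene length, Wfdc18 ranked 82, 143 and 175 among all genes in the controls and 2151, 3465 and 8202 in the hormone libraries. It made up 30.1%, 19.4% and 22.5% of the summed FPKM of all members in the controls and 1.86%, 1.36% and 0.36% in the hormone libraries. The log2 fold change was -4.73 ± 0.66 (SE; edgeR adjusted p = 0.0148, n = 3 per group). Leaving out any 1 library kept the estimate between -5.29 and -4.15, but the adjusted p rose to 0.0533 without control 2 and to 0.0724 without hormone 2. The lower calls over all genes also fell in these fits, from 124 to 13 and 12. They fell to 13 without hormone 3 too, where Wfdc18 passed. Among luminal markers, Msmb, a secreted prostate protein, was also lower in every hormone library (1409 to 3573 CPM against 381 to 1302 CPM) without passing (edgeR adjusted p = 0.128), while Krt8 was higher, and the part of luminal cells in the Wfdc18 values was not tested. In the table's coordinates, whose build was not given in the sources used here, Wfdc18 (ENSRNOG00000037097) spans 71008709 to 71010863 of chromosome 10. The span of the unnamed gene AABR07030143.1 covers it, with 5 counts in all.

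Wfdc21, another WAP gene, lies next to it on chromosome 10 at 71047310 to 71053191 (ENSRNOG00000029668). Controls 1, 2 and 3 held 202, 143 and 3 counts of it, and all hormone libraries held 0. Over the group this is at least 106-fold lower in hormone libraries (floor of 3 counts over the group), but control 3 was itself near 0. Wfdc21 therefore had enough counts in too few libraries to be tested.

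Promoter windows of WAP genes are printed for Wfdc18, the called member, for its neighbour Wfdc21 and for Wfdc2, which had the next smallest p. They hold the 250 bases before the transcription start as RefSeq annotates it in build GRCr8, which is not shown to be the build of the counts, and were matched by symbol (59 of 79 member symbols matched). Capitals mark TATAAA on the strand of the gene, or the androgen receptor half-site AGAACA on either strand (TGTTCT on the other).
Wfdc18, chr10:69086069-69086318, plus strand: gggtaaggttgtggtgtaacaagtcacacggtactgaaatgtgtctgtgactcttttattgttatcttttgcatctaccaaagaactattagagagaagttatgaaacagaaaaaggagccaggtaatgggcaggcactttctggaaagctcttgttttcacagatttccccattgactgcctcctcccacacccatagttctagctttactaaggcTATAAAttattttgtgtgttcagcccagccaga
Wfdc21, chr10:69125086-69125335, plus strand: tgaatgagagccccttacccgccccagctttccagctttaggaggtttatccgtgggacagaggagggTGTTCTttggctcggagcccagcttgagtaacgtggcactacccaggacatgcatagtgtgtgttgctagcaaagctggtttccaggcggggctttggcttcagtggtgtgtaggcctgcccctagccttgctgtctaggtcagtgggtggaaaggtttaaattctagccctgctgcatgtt
Wfdc2, chr3:173706225-173706474, plus strand: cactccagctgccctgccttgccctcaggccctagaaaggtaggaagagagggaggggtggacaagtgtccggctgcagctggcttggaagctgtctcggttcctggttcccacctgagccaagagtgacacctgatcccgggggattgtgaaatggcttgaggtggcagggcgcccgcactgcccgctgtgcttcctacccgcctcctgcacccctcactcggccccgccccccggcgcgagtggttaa
Wfdc18 holds TATAAA, which starts at position -33 from the end of the window, and no AGAACA. Wfdc21 holds 1 AGAACA half-site, at -182, and no TATAAA, and Wfdc2 holds neither. Among 33469 annotated promoters, 8.06% hold TATAAA and 17.5% hold AGAACA on either strand, and among 63 windows of members 9 hold each. The full androgen element (AGAACA, 3 bases of any kind, TGTTCT), which contains the half-site, the estrogen element (GGTCA, 3 bases of any kind, TGACC) and the STAT-type motif TTCNNNGAA were searched on both strands. They were found in 0, 0 and 4 member windows and in 0.012%, 0.0239% and 7.67% of all promoters. A match describes letters and no match says only that these letters are not in this window.

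Wfdc2, the WAP protein HE4 that secretory epithelia release, had the next smallest p. Its levels were 51.0, 33.5 and 32.5 CPM in the controls and 22.1, 13.5 and 10.7 CPM in hormone libraries, with no overlap between the groups. The log2 fold change was -1.33 ± 0.30 (edgeR adjusted p = 0.0595), which did not pass, while DESeq2 called it (adjusted p = 0.000943). Slpi, the secretory leukocyte protease inhibitor that blocks neutrophil elastase and cathepsin G, had the opposite sign. It stood at 21.3, 9.90 and 4.43 CPM in the controls and 39.2, 21.7 and 21.2 CPM in hormone libraries. Control 1 lay just above hormone 3, so the groups overlapped, and the log2 fold change of 1.21 ± 0.53 did not pass (edgeR adjusted p = 0.226). Of 5 neutrophil markers 4 had counts, with summed levels of 1.09 to 3.71 CPM in the controls and 4.58 to 6.37 CPM in hormone libraries. Elane, neutrophil elastase itself, was at 0 in every library.

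Other WAP genes gave 0 calls on all 6 libraries with edgeR or DESeq2, which returned no adjusted p for Wfdc3. Wfdc1, a stromal WAP protein first described from prostate, ranged from 18.4 to 37.0 CPM in the controls and from 28.0 to 45.5 CPM in hormone libraries (edgeR adjusted p = 0.552). For Wfdc3, controls 1, 2 and 3 held 0, 0 and 610 counts and the hormone libraries 102, 608 and 105, so control 3 was close to hormone 2 and away from the other controls. Its log2 fold change of 0.59 had a standard error of 1.73, and its sign rested on single libraries: the fitted value was -0.83 without hormone 2 and 11.16 without control 3, the latter set against controls at 0. Its span reaches into Dnttip1, which had 316 to 441 counts in every library and so does not follow this pattern. Wfdc5 had 71, 0 and 204 counts in the controls and 3, 4 and 0 in hormone libraries, a ratio of 35.9 (95% interval 17.2 to 90.1 from counting error), which ignores the spread between controls. Wfdc5 had enough counts in too few libraries to be tested. The remaining Wfdc genes, 11 in number, had at most 5 counts over all libraries or none.

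**Figure D2:**
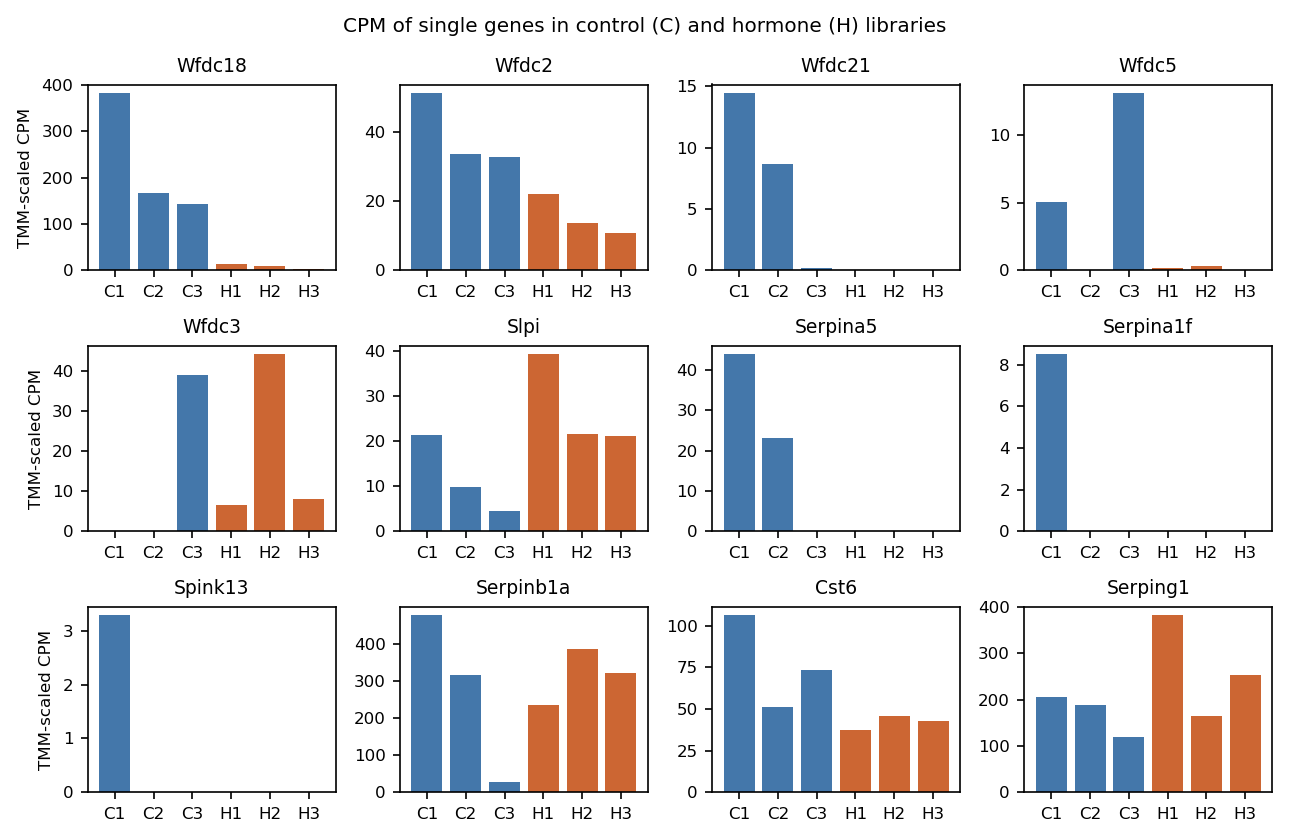
TMM-scaled CPM (y axis, from 0, a different scale in each panel) of 12 genes in the 3 control libraries (C1 to C3, blue) and the 3 hormone libraries (H1 to H3, orange); each bar is 1 library. Wfdc18 and Wfdc2 are higher in every control, whereas Serpina5, Serpina1f, Spink13, Wfdc3 and Serpinb1a are set apart by 1 or 2 control libraries.

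Kazal-type inhibitors were almost unread in this tissue. Of 13 Spink rows, 8 had no count, and Spink8 was the 1 tested member. Spink8 stood at 7.06, 5.59 and 4.62 CPM in the controls and 6.57, 10.8 and 5.39 CPM in hormone libraries, with overlapping groups (edgeR adjusted p = 0.469). Spink1, the pancreatic secretory trypsin inhibitor, was listed at 0 in all 6 libraries, and how reads shared with similar genes were counted was not given in the sources used here. Spink13, Spink10, Spink1l and Spink7 had 46, 5, 4 and 1 counts in control 1 and 0 in the other 5 libraries. Spink13 and Spink10 overlap each other on chromosome 18, so their counts are not separate evidence.

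Cystatins held the most abundant member. Cst3, cystatin C, the general secreted inhibitor of cysteine cathepsins, had the highest FPKM of the set in every library but control 1, where Wfdc18 exceeded it. Its levels were 634, 495 and 405 CPM in the controls and 607, 489 and 528 CPM in hormone libraries, and its log2 fold change was 0.08 ± 0.19 (edgeR adjusted p = 0.825). Cst6, cystatin E/M, an inhibitor of legumain and cathepsins in epithelia, stood at 106, 51.0 and 73.3 CPM in the controls and 37.7, 45.6 and 42.7 CPM in hormone libraries. The Cst6 groups did not overlap, the hormone libraries lay within a narrow band, and the log2 fold change of -0.87 ± 0.25 did not pass with edgeR (adjusted p = 0.105) but did with DESeq2 (adjusted p = 0.0199). Cst7, cystatin F of immune cells, was highest in hormone 1 at 4.57 CPM and lay between 1.09 and 1.94 CPM elsewhere (edgeR adjusted p = 0.617). The other 6 cystatin rows had at most 2 counts.

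**Figure D3:**
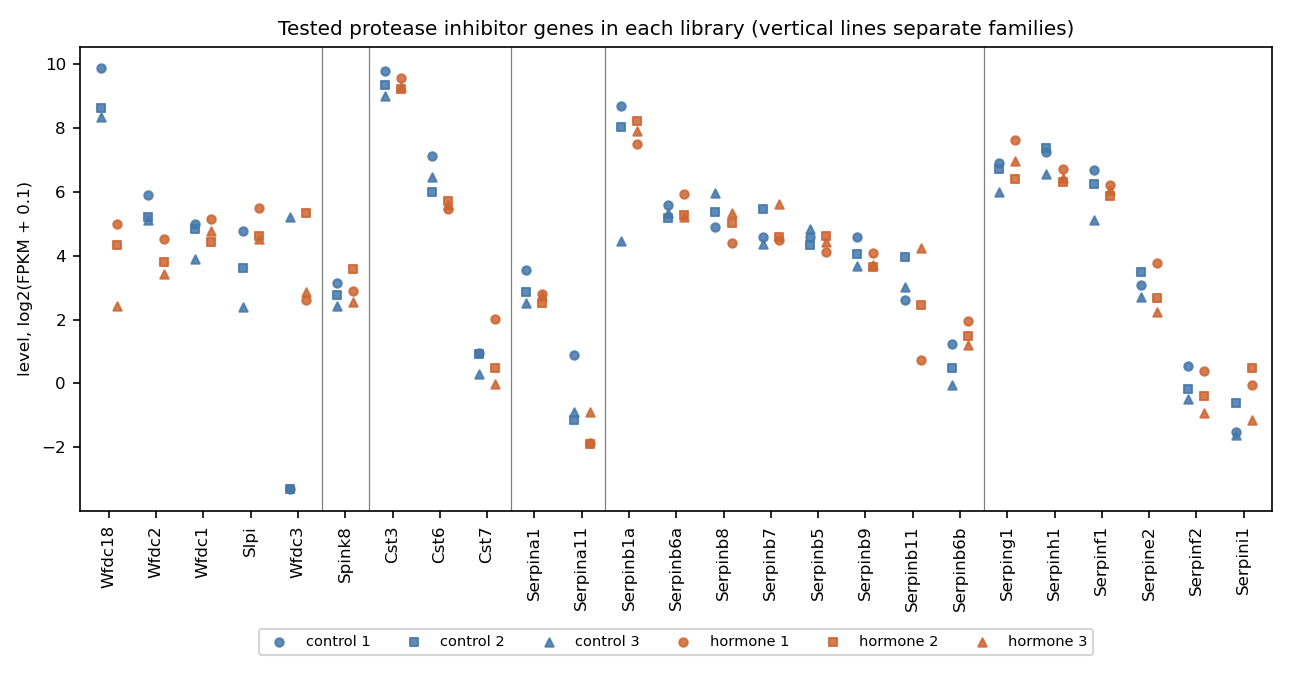
Level of 25 of the 26 tested members as log2(FPKM + 0.1) on the y axis, with the genes on the x axis grouped by family and ordered by mean FPKM; each point is 1 library, blue for control and orange for hormone, with the shape giving the library number. Cst3 and Serpinb1a head their families, Wfdc18 separates by group, and Serpinb1a in control 3 and Wfdc3 in controls 1 and 2 fall far below the other libraries.

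Clade A serpins, the alpha-1-antitrypsin group, gave 2 tested genes, neither called by edgeR or DESeq2. A further 5 had counts, but enough of them in too few libraries to be tested. Serpina1, alpha-1-antitrypsin, stood at 20.4, 13.1 and 10.7 CPM in the controls and 13.4, 11.1 and 13.6 CPM in hormone libraries (edgeR adjusted p = 0.642). Serpina11 had 57, 14 and 17 counts in the controls and 7, 6 and 15 in hormone libraries (log2 fold change -1.54 ± 0.72, edgeR adjusted p = 0.254). Without control 1 its log2 fold change was -0.51. Serpina5, the protein C inhibitor of seminal plasma, was read in controls 1 and 2, with 614 and 379 counts, and had 0 in control 3 and in all hormone libraries. Serpina5 had enough counts in too few libraries to be tested. Serpina1f had 119 counts in control 1 and 0 elsewhere, and Serpina16 had 37 in control 1 and 4 over the hormone libraries. Serpina3c had 60 of its 61 counts in hormone 2, and its span overlaps another serpin gene of the table, and how shared reads were counted is unknown.

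The seminal vesicle gene Pate4 followed the libraries in which Serpina5 and Wfdc21 were found, with 3066, 763 and 1 counts in controls 1, 2 and 3 and none under the pellets. The seminal vesicle and coagulating gland list as a whole did not, because Semg1 dominated it. Counts were found for 3 of the 6 listed genes present, Svs4, Svs5 and Svs6 were at 0 in all libraries, and the summed level ran from 1121 to 23733 CPM in controls, highest in control 3, and from 3481 to 8971 CPM in hormone libraries. Of 6 epididymis markers 4 had counts, at summed levels of 1.03 to 6.23 CPM in the controls and 2.03 to 4.43 CPM in hormone libraries. Crisp1 in that list had 8 counts in control 1 and 0 elsewhere, and Adam7 and Spag11bl were at 0. The part of tissue composition in the Serpina5, Serpina1f, Spink13, Wfdc21 and Wfdc5 values was not tested.

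Clade B serpins, mostly intracellular inhibitors of granule and lysosomal proteases, gave 8 tested genes and 0 calls with edgeR (1 with an unadjusted p under 0.05) and 0 with DESeq2. Serpinb1a, which inhibits neutrophil elastase, stood at 476 and 315 CPM in controls 1 and 2, at 27.3 CPM in control 3, and at 234, 385 and 321 CPM in hormone libraries. Control 3 was far below the other 5 libraries, and the log2 fold change of 0.20 ± 0.79 turned to -0.34 without it (edgeR adjusted p = 0.905 and 0.446). Serpinb6a ranged from 46.8 to 60.3 CPM in the controls and from 53.9 to 84.0 CPM in hormone libraries (edgeR adjusted p = 0.484). Serpinb6b had 2.36, 1.40 and 0.963 CPM in the controls and 4.38, 3.20 and 2.66 CPM in hormone libraries, without overlap, and did not pass (log2 fold change 1.13 ± 0.39, edgeR adjusted p = 0.153). Serpinb8, described in human as an inhibitor of furin, ranged from 132 to 293 CPM in the controls and from 102 to 206 CPM in hormone libraries (edgeR adjusted p = 0.526). Serpinb5, the basal epithelial protein maspin, ranged from 49.8 to 73.2 CPM and from 45.8 to 64.9 CPM (edgeR adjusted p = 0.85), beside summed basal markers of 412 to 747 CPM in the controls and 309 to 490 CPM in hormone libraries. Serpinb7, Serpinb9 and Serpinb11 also overlapped between groups, with edgeR adjusted p values of 0.742, 0.638 and 0.977.

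Serpins of the other clades, which regulate complement, fibrinolysis and collagen folding, gave 7 tested genes and 0 calls with either tool (1 with an unadjusted p under 0.05 in edgeR). Serping1, the C1 inhibitor of the complement system, stood at 207, 189 and 120 CPM in the controls and 382, 165 and 254 CPM in hormone libraries. Hormone 1 was the highest library and hormone 2 lay below controls 1 and 2, so the groups overlapped (log2 fold change 0.64 ± 0.32, edgeR adjusted p = 0.285). Without hormone 1 the log2 fold change was 0.29. Serpine2, the protease nexin, reached 40.3 CPM in hormone 1 and lay between 14.5 and 30.8 CPM elsewhere (edgeR adjusted p = 0.961).

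The summed macrophage markers, like Slpi, Cst7, Serping1 and Serpine2, were highest in hormone 1. So were Wfdc1, Serpinb6a and Serpinb6b. In all, 8 of the 26 tested members had their highest value in hormone 1, as did 20.5% of all genes tested. All 5 macrophage markers had counts, and they summed to 443, 274 and 295 CPM in hormone 1, 2 and 3. In controls 1, 2 and 3 the sum was 66.8, 249 and 139 CPM. It was lowest in control 1, where Slpi and Serping1 had their highest control value. In control 2, where the sum was highest among controls, Serpine2 had its highest control value. Cst7 was nearly level in controls 1 and 2 (1.93 and 1.94 CPM). T and NK cell markers, also 5 of 5 with counts, summed to 34.8 CPM in hormone 1 and to 10.1 to 19.5 CPM in the other libraries. Their part in the Slpi, Cst7, Serping1 and Serpine2 values was not tested.

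Serpinh1, the collagen chaperone HSP47, stood at 345, 391 and 234 CPM in the controls and 265, 204 and 232 CPM in hormone libraries (log2 fold change -0.47 ± 0.21, edgeR adjusted p = 0.229). Of 5 fibroblast markers 4 were in the table, all 4 with counts. They summed to 1546 to 3096 CPM in the controls and 1697 to 2156 CPM in hormone libraries. Single markers differed in direction. Lum was lower in every hormone library (122 to 261 CPM against 79.9 to 99.5 CPM) without passing (edgeR adjusted p = 0.0596). The log2 fold change was -0.68 for Dcn and 0.19 for Col1a1, and neither passed. The part of fibroblasts in the Serpinh1 values was not tested. Serpinf1, pigment epithelium-derived factor, ranged from 53.6 to 146 CPM in the controls and from 94.5 to 117 CPM in hormone libraries (edgeR adjusted p = 0.943). Serpini1, neuroserpin, was rare, with 10, 27 and 11 counts in the controls and 43, 58 and 15 in hormone libraries (log2 fold change 1.40 ± 0.55, edgeR adjusted p = 0.191). Serpinf2, the plasmin inhibitor alpha-2-antiplasmin, had 14 to 46 counts in each library (edgeR adjusted p = 0.9). Antithrombin (Serpinc1) had 1 count, and Serpind1, Serpine3 and Serpini2 had none.

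Across families, the libraries differed in ways the groups do not describe. Of the 26 tested members, 13 were lowest in control 3, where 17.4% of all genes tested had their lowest. In control 1, 10 members were highest, not far from the 31.2% of all genes tested that had their highest value there. Summed over members, the level was 2890, 2320 and 1693 CPM in the controls and 2227, 1914 and 2066 CPM in hormone libraries, so the totals overlapped. Only for Wfdc with Slpi did the summed level of a family separate the groups. It was 511, 254 and 251 CPM in the controls and 128, 117 and 79.9 CPM in hormone libraries. Wfdc18 alone supplied 382, 168 and 143 CPM of the control level, so the separation is not shown for the rest of that family.

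Proteases, not all of them targets of these families, and inhibitors of other kinds were read from 2 further lists. Of 101 protease symbols, 99 rows were in the table and 42 were tested. edgeR called 2 higher and 0 lower (4.76% against the background of 3.27%), with 18 of 42 at an unadjusted p under 0.05, against 22.8% of all genes tested. The median log2 fold change was 0.26 over the tested proteases. By DESeq2 the calls were 12 higher and 4 lower of 42, against 10.9% of all genes in either direction. Furin, the proprotein convertase of the secretory pathway, rose from 421, 459 and 547 CPM in controls to 993, 992 and 980 CPM in hormone libraries (log2 fold change 1.06 ± 0.15, edgeR adjusted p = 0.0154). Tmprss13, a membrane-anchored serine protease, rose from 178, 187 and 252 CPM to 353, 416 and 441 CPM (log2 fold change 0.97 ± 0.17, edgeR adjusted p = 0.0316). Both calls were lost without control 2 or any 1 hormone library, and that of Tmprss13 also without control 1, with an adjusted p of up to 0.0806 for Furin and 0.12 for Tmprss13. By mean FPKM over all 6 libraries the most abundant cathepsins were the lysosomal proteases Ctsd and Ctsb, which had 638 ± 67.8 and 143 ± 30.8 FPKM in the controls and 557 ± 25.0 and 216 ± 39.6 FPKM in hormone libraries (SD, n = 3), and neither passed (edgeR adjusted p = 0.807 and 0.0925). In the controls alone Ctse, cathepsin E, exceeded Ctsb, with 159 ± 45.0 FPKM there and 68.0 ± 17.01 FPKM in hormone libraries, without overlap (log2 fold change -1.10 ± 0.28, edgeR adjusted p = 0.0763).

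Of 42 other inhibitor symbols, 37 rows were in the table, 17 were tested and edgeR called 0, against 3.27% of all genes tested. An unadjusted edgeR p under 0.05 was found for 5 of 17, against 22.8% of all genes tested. DESeq2 called 1 of 17, which was lower, against 10.9% of all genes in either direction. The median log2 fold change of these genes was -0.21, with 13 of 17 negative, against -0.0015 and 7017 of 14003 for all genes tested. Spint2, a Kunitz-type inhibitor of membrane serine proteases, and Pebp1, a phosphatidylethanolamine-binding protein, were the most abundant per length. Spint2 had 314 ± 42.9 and 260 ± 30.8 FPKM and Pebp1 had 177 ± 2.68 and 133 ± 7.58 FPKM in the controls and hormone libraries (SD, n = 3; edgeR adjusted p = 0.582 and 0.162).

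**Figure D4:**
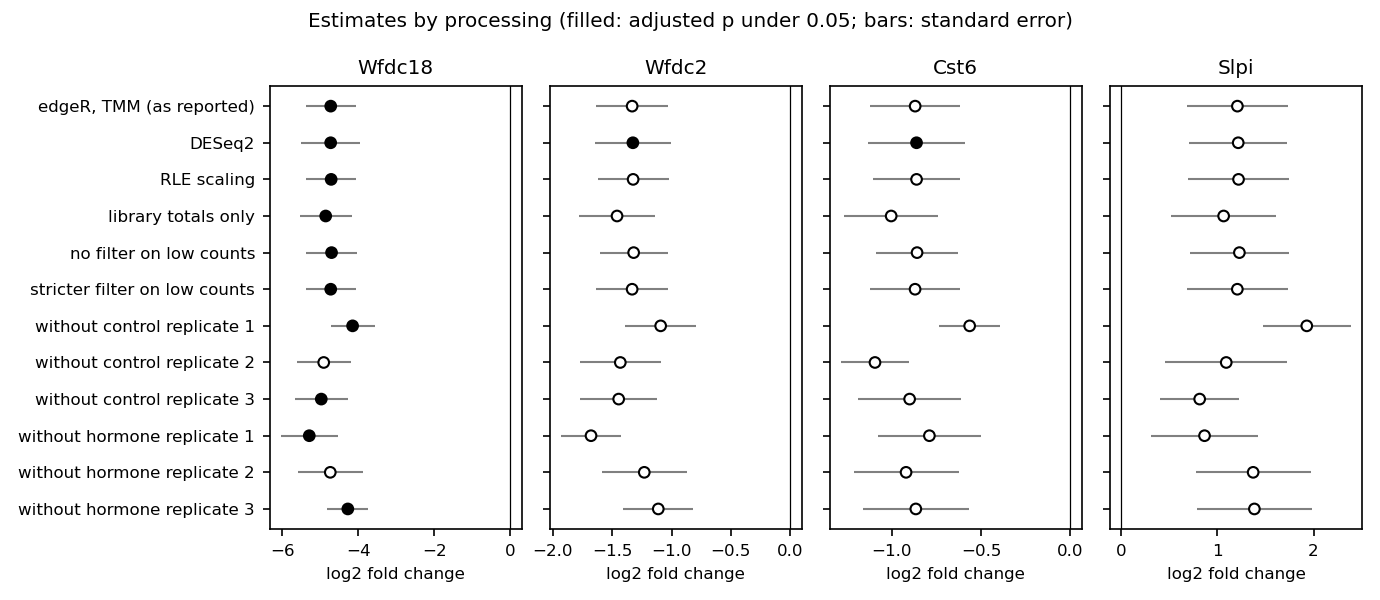
Log2 fold change (x axis, a different scale in each panel) of Wfdc18, Wfdc2, Cst6 and Slpi as reported and under other processing or with 1 library left out (y axis); bars are standard errors and filled points have an adjusted p under 0.05. Wfdc18 is open without control 2 and without hormone 2, Wfdc2 and Cst6 are filled with DESeq2 alone among the settings drawn, and no estimate of the 4 genes changes sign.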

How the data were processed

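Per the labels' protocols, RNA was isolated with a column kit and paired-end TruSeq libraries were made. Reads were aligned and counted upstream, and the tools named in the submitters' processing notes are TopHat, Bowtie2 and HTSeq. Versions, genome build, annotation, strand setting and treatment of shared reads were not given in the sources used here. Raw counts per gene and FPKM stand side by side in the table the authors deposited, and FPKM was those counts rescaled by gene length and library total (implied lengths agreed within 0.00172% over 10557 genes with at least 50 counts per library). The table held 0 columns of other samples.

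The test was run with edgeR 4.0.16 (R 4.3.3) on the counts of the whole table (filterByExpr, minimum count 10 and minimum total 15; TMM scaling; robust quasi-likelihood F-test, two-sided, 4 residual degrees of freedom), with Benjamini-Hochberg adjustment over 14003 genes and a threshold of 0.05. The filter needs enough counts in at least 3 libraries, so genes short of that were not tested, whatever their total. Levels are TMM-scaled CPM. Fold changes are hormone minus control, and the SE is that difference over the root of the F statistic. Alternatives were DESeq2 1.42.0, other scalings and filters, the replicate number as a block, and each library left out. In simulated data on 13838 genes for hormone against control, edgeR called 94.0% of genes raised 4-fold, 40.0% of genes raised 2-fold and 10 of 13643 unchanged genes. Of genes lowered 4-fold and 2-fold it called 87.5% and 36.2%. Replicates differed beyond sampling noise (chi-square per gene 22.7 to 113).

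Members and lists were chosen with earlier results of these data known. Values are given for Wfdc18, Slpi, Serping1, each called member, and in each family the 2 members of highest mean FPKM and the tested one of smallest p, and in the 2 further lists the called genes and the 2 of highest FPKM. Other members named were chosen after their values were seen. The values of 1 tested member are not reported here, though it stays in the counts of members.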

Additional observations from a re-analysis of the deposited data

How the results depend on the processing

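Wfdc18 kept its direction in all 12 alternatives and passed in 10, with a log2 fold change between -5.29 and -4.15. With DESeq2, 3 members were lower, as were 618 of all genes against 906 higher, 12 proteases were higher and 4 lower, and 1 other inhibitor was lower. Scaling by library totals only moved the median log2 fold change of all genes to -0.13 and gave 230 lower genes in all and 2 lower proteases. Under it the log2 fold change of Cst3 was -0.049. With 1 library left out, 0 to 3 members were lower, and the 0 was without hormone 2. Over all genes, 51 to 313 were higher and 12 to 156 lower. Of the proteases, 0 to 2 were higher and 0 to 2 lower, and of the other inhibitors 0 to 1 were lower. The calls of Wfdc21 and Serpina5 without control 3 and of Wfdc5 without control 2 are no tests, because these genes passed the filter through the 2 controls where they were high once the control at or near 0 was left out. Setting them aside, Wfdc18 was the 1 lower member without control 3, and none was left without control 2. Leaving out 1 library also changed signs, with log2 fold changes of -0.058 to 0.27 for Cst3 (-0.058 without control 3, -0.0021 without hormone 1), -0.17 to 0.037 for Ctsd (0.037 without control 3), -0.40 to 0.091 for Serpina1 (0.091 without control 1) and -0.34 to 0.87 for Serpinb1a (-0.34 without control 3). The sign also changed in at least 1 fit for Wfdc3, Cst7, Serpinb5, Serpinb7, Serpinb9, Serpinb11, Serpine2, Serpinf1 and Serpinf2. None of the genes named here for a changed sign passed in any fit. The cause of the changed values was not tested.

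No label pairs the samples by replicate number. Deviations of same-numbered libraries, taken over all genes tested, correlated at 0.083, -0.057 and 0.070, which cannot settle whether samples are paired. With the replicate block 2 members were lower (Wfdc18 and Wfdc2, adjusted p = 0.0239 for Wfdc2), and 80 genes in all were lower. Across the groups, 2 of 6 libraries, control 1 and hormone 3, correlated best with the library of their own number.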

Other observations

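A clade A serpin that the symbol rule leaves out was higher in every hormone library. The table lists it as LOC299282, described there as a serine protease inhibitor (ENSRNOG00000010478), and RefSeq names the gene with this number Serpina3l. Its level was 3.50, 4.07 and 9.11 CPM in the controls and 64.4, 74.8 and 58.7 CPM in hormone libraries, with no overlap. It rose 11.8-fold (log2 fold change 3.56 ± 0.35, edgeR adjusted p = 0.00652, n = 3 per group). The call held in each fit with 1 library left out, with a log2 fold change of 3.33 to 4.12 and an adjusted p of 0.00163 to 0.0401. The gene was named after its values were seen. In the table it spans 127941526 to 128080889 of chromosome 6, a span that contains Serpina3c, and how reads shared between them were counted is unknown.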
